A study of Mus musculus with 2 samples.

Results

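The T cell receptor loci and the genes of the T cell co-receptors were examined for open chromatin in 1 mouse B cell lymphoma, T6. The members were the sites in the tumour's DNaseI list that overlapped 6 windows of the mm9 genome by at least 1 bp. The windows lay over Tcra-Tcrd, Tcrb, Tcrg, the Cd3 cluster (Cd3e, Cd3d and Cd3g), Cd4, and Cd8a-Cd8b1. They held 36 of the 53593 sites listed (0.0672%) in 3.06 Mb of sequence. The tumour was an Eμ-myc lymphoma of genotype Arf-/- Trp53+/+ and strain C57/Bl6, from untreated material. The Eμ-myc transgene places Myc under Eμ, the Igh enhancer, which is active in B cells. Its cells are labelled as B cells from lymph nodes, but the suspension was not purified after the nodes were strained, so T cells of the node could have contributed DNA. DNaseI cuts exposed DNA, and the list gives only the chromosome, start and end of each stretch called as a site. The question was whether loci that T cells use stood open in this mixture.

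A T cell recognises antigen through a receptor of α and β or of γ and δ chains, whose genes are assembled in the thymus from V, D, J and C segments by the recombinase that also assembles the immunoglobulin genes of B cells. The receptor chains signal through the CD3 proteins. CD4 and CD8 are co-receptors that bind the MHC molecules on the presenting cell and mark helper and cytotoxic T cells. In mature B cells the receptor loci of the T lineage are normally left unrearranged.

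The RefSeq gene table of GRCm38.p6, used here for names and order, lists 130 V and 60 J segments and 1 C gene for Tcra. Tcrd, whose segments lie among those of Tcra, has 6 V, 2 D, 2 J and 1 C. Tcrb has 35 V, 2 D, 14 J and 2 C, and Tcrg has 7 V, 4 J and 4 C. In that table the order on chromosome 14 runs from Trav1 through the V segments, Trdc and the J segments to Trac, followed by Dad1. On chromosome 6 it runs from Trbv1 through V segments and a run of trypsinogen genes to Trbc1, Trbc2 and Trbv31. The table is of another assembly than the sites, so a site was placed in its window only, and the gene or segment under a site was not analysed here. Statements below about which end of a window faces which gene assume the same gene order in mm9.

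The promoters of 4 of the 6 co-receptor and CD3 genes were in the RefSeq promoter table (GRCm38.p6), and they are shown because the smaller windows were drawn around these genes. Each runs from 250 bases before to 50 after the start of the gene. Capitals mark matches on either strand to TGTGGT or TGCGGT, the core bound by RUNX factors, GGAAG, the core bound by ETS factors, and CANCTG, an E box bound by E proteins. These factor families act in lymphocytes of both lineages.
Cd3g (chr9:44980382-44980681, GRCm38.p6, minus strand): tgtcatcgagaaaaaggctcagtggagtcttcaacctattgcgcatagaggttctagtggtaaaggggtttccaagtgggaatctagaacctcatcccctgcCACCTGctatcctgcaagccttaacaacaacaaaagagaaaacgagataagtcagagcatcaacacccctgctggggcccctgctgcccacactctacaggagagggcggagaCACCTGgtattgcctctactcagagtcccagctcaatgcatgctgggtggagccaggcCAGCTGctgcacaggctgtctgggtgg
Cd3d (chr9:44981536-44981835, GRCm38.p6, plus strand): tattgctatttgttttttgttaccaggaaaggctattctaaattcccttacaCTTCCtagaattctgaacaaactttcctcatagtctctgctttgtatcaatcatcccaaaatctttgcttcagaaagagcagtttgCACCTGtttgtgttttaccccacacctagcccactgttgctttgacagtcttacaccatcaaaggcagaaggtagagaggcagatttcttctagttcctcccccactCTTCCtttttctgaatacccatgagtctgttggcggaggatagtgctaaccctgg
Cd3e (chr9:45009562-45009861, GRCm38.p6, minus strand): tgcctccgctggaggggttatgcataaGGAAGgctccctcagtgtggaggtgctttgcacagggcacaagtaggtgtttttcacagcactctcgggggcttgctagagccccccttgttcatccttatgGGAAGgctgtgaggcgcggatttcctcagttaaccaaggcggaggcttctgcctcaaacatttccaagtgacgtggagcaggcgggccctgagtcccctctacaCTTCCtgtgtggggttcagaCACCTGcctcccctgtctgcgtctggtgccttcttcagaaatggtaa
Cd8a (chr6:71373177-71373476, GRCm38.p6, plus strand): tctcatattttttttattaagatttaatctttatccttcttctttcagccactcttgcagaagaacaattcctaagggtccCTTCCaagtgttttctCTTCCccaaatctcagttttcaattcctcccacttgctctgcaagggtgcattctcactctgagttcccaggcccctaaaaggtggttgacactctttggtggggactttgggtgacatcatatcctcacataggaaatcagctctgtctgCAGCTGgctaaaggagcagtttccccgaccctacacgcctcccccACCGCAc
The RUNX core was present in 22.4% of all 32841 promoters of the table, the ETS core in 71.4% and the E box in 51.4%. Only Cd8a of the 4 held the RUNX core, with 1 match. Cd3e had 3 ETS matches, Cd3d 2, Cd8a 2 and Cd3g 0. Cd3g had 3 E boxes and each of the others 1, and no matches of different motifs overlapped. The median promoter of the table had 7 CpG dinucleotides. Cd3d had 1, Cd8a 3, Cd3g 4 and Cd3e 8. Whether a DNaseI site covers any of these promoters was not analysed here, and a match is a description of the letters, not of binding.

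The Tcra-Tcrd window (chr14:52900000-54850000, 1.95 Mb) had sites at its ends and was almost empty between them. It held 19 sites, or 9.74 per Mb (exact 95% Poisson interval 5.87 to 15.2). The rest of chromosome 14 held 15.2 per Mb, and the ratio was 0.643 (exact 95% interval 0.386 to 1.01), so the interval just included 1. Without the edge site, which reached only 81 bp into the window, the ratio was 0.608 (0.360 to 0.965). Among 1255 autosomal windows of that length, 88.7% held at least 1 site and 58.5% held at least 19, so the count was not unusual for its length. The median among them was 27 sites. The adjoining windows of the same length held 68 sites on the left and 125 on the right.

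Placement within Tcra-Tcrd was uneven. The first 10% of the window's length held 7 sites, the last 10% held 11 and the 80% between them held 1. That middle part, chosen after the sites were seen, had 0.641 sites per Mb (0.0162 to 3.57) over 1.56 Mb. The longest stretch without a site ran for 1355 kb (53070941 to 54426117), and 0.569% of the 52722 gaps between neighbouring autosomal sites were as long. By length such gaps are common: they made up 34.0% of the distance between autosomal sites, and 11.3% of the 1255 windows of 1.95 Mb held no site. The single site inside the middle, of 280 bp at 54426118 to 54426397, was picked out for its isolation, with 253 kb to the next site on its other side.

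The widest member of all 6 windows closed the Tcra-Tcrd window, at the end that faces Trac and Dad1. It measured 2705 bp (54845967 to 54848671), and 1.07% of the listed sites were at least as wide. It was the last of 4 sites in 7.01 kb, of which the first measured 1157 bp (54841657 to 54842813). A site of 1314 bp lay farther in (54771715 to 54773028). The remaining sites of the last 10% were 258 to 963 bp wide. The enhancer of Tcra is known to lie between Trac and Dad1, a gene expressed in most tissues; whether the widest site covers that enhancer was not analysed here.

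At the opposite end, the first site measured 1754 bp (52898328 to 52900081) and reached only 81 bp into the window. The third measured 1153 bp (52923977 to 52925129), and the others of the first 10% 339 to 568 bp. Before Trav1 the gene table places Tox4, a chromatin protein gene, Mettl3, which encodes an RNA methyltransferase, Sall2 and a row of olfactory receptor genes. Sites at this end therefore cannot be told apart here into those of V segments and those of these neighbours.

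The Tcrb window (chr6:40840000-41520000, 680 kb) was the sparsest of the 6. Its 4 sites came to 5.88 per Mb (1.60 to 15.1), against 17.2 per Mb on the rest of chromosome 6. The ratio was 0.342 (0.0930 to 0.876), below 1 by more than counting error, though not once sites at most 1 kb apart were joined (0.432, 0.117 to 1.11). Even so, 56.6% of 3621 autosomal windows of that length held 4 or more sites, and 69.6% held at least 1. The median window of that length held 6. On the left the adjoining 680 kb held 10 sites, and on the right 3.

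The sites of Tcrb were of 561 bp (40843391 to 40843951), 476 bp (41062868 to 41063343), 535 bp (41086889 to 41087423) and 838 bp (41504171 to 41505008). The first stood at the edge of the window near Trbv1, and the middle pair lay at 32.8% and 36.3% of its length. The fourth and widest stood alone at the end where the D, J and C segments lie, 417 kb beyond the third and 49.5 kb before the next site on the chromosome. The enhancer of Tcrb is known to lie beyond Trbc2, and whether the fourth site covers it was not analysed here.

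The Tcrg window (chr13:19260000-19460000, 200 kb) held 6 sites, or 30 per Mb (11 to 65.3). Against 18.0 per Mb on the rest of chromosome 13 the ratio was 1.67 (0.611 to 3.63), within counting error of 1. Windows of that length held at least 1 site in 51% of 12331 cases and at least 6 in 27.5%. The adjoining 200 kb held no site on the left and 3 on the right, and the median window of that length held 1.

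Of the Tcrg sites, 4 lay in the last 10% of the window. They measured 724 bp (19448681 to 19449404), 586 bp (19449743 to 19450328), 426 bp (19456148 to 19456573) and 298 bp (19457771 to 19458068). The other members were of 676 bp (19269477 to 19270152) and 578 bp (19311484 to 19312061), and 137 kb without a site separated them from the group of 4. In the gene table Trgc4 is the last Tcrg segment and is followed by Stard3nl, a gene of a membrane protein, so the group of 4 lay at the end that faces both.

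**Figure D1:**
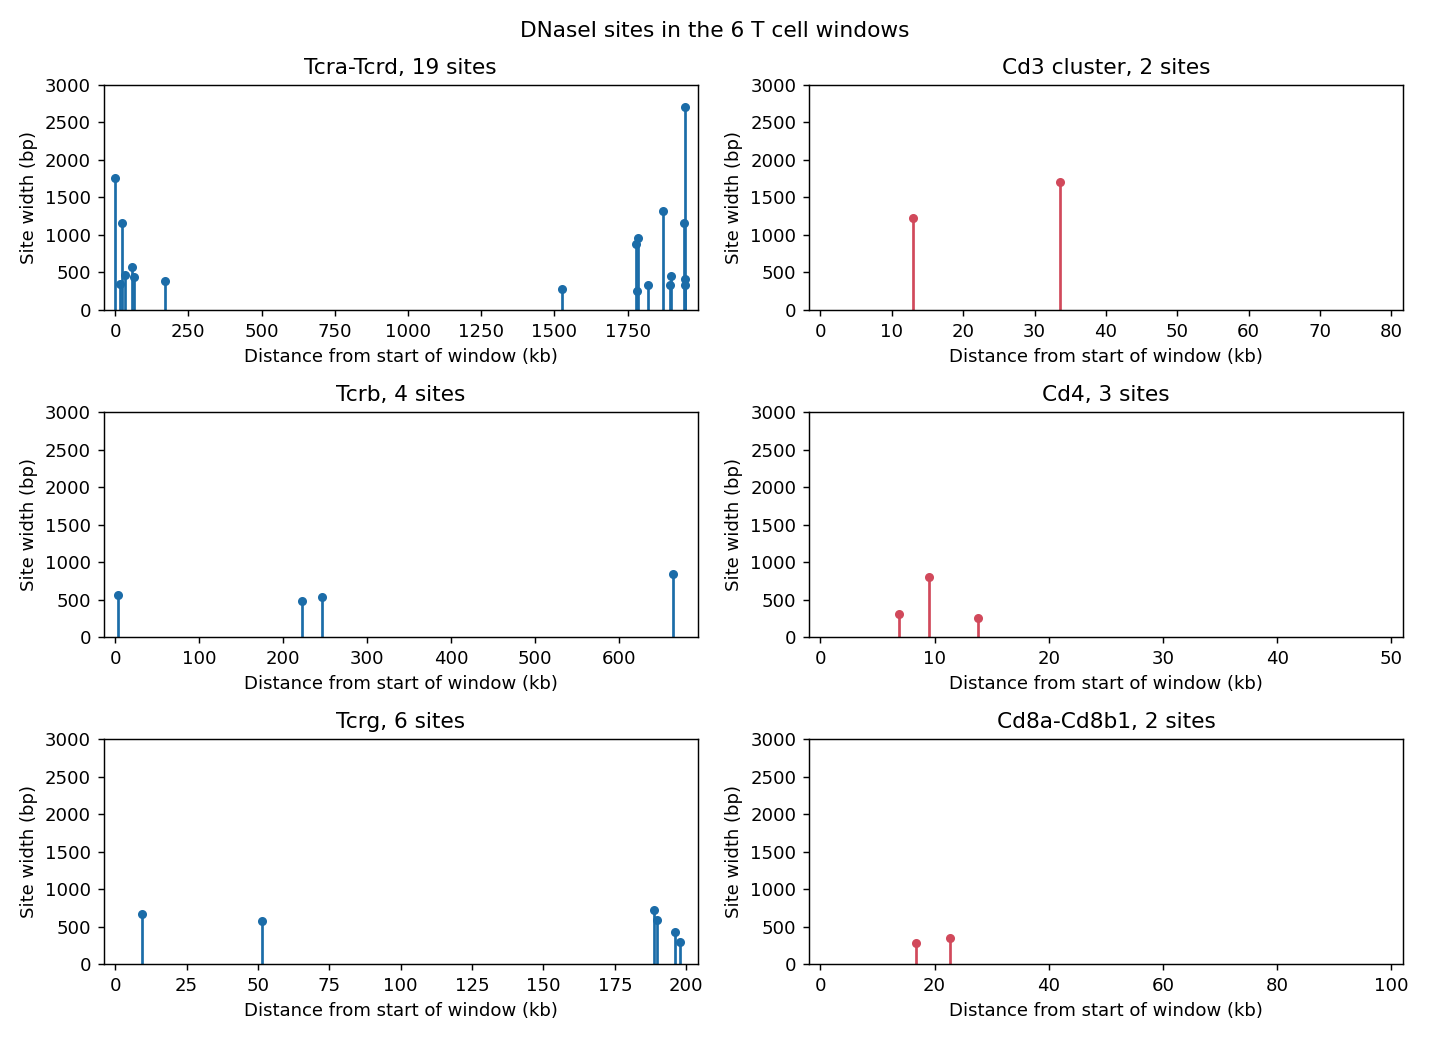
Each vertical line is 1 DNaseI site, placed by its distance in kb from the start of its window, with its height giving the width in bp. All but 1 of the 19 Tcra-Tcrd sites lie in the first or last 10% of the window, and the longest empty stretch, of 1355 kb, ends at that 1 site. The Cd4 and Cd8a-Cd8b1 sites all lie at or before 27.9% of their windows.

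The windows over the CD3 and co-receptor genes were small and held 7 sites in 0.23 Mb, or 30.4 per Mb (12.2 to 62.7). That was 2.97 times the density of the 3 receptor loci together (exact 95% interval 1.10 to 6.93). The regions compared are unlike: short windows drawn around genes and their neighbours, against long arrays of segments. Of autosomal windows of the same lengths, 16.4% (Cd4) to 33.8% (Cd8a-Cd8b1) held at least as many sites. The ratio of 2.97 was not computed again under other settings. Each window alone was within counting error of its chromosome.

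The Cd3 window (chr9:44760000-44840000, 80 kb) had the widest sites of these 3. They measured 1225 bp (44773043 to 44774267) and 1703 bp (44793636 to 44795338), and 18.9% and 7.67% of the listed sites were at least as wide. In autosomal windows of 80 kb, 39.5% held at least 1 site and 30.5% at least 2. The ratio to the rest of chromosome 9 was 1.04 (0.126 to 3.76). The gene order here is Ube4a, a ubiquitin ligase gene, then Cd3g, Cd3d and Cd3e, which encode the γ, δ and ε chains of CD3, then Mpzl2. The first site lay toward the Ube4a side, the second near the middle, and the last 44.7 kb of the window, toward Cd3e and Mpzl2, had none. With 2 sites and no mm9 gene map, the 3 Cd3 genes were not told apart.

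The Cd4 window (chr6:124800000-124850000, 50 kb) held 3 sites, all in its first 14.1 kb. They measured 310 bp (124806854 to 124807163), 798 bp (124809520 to 124810317) and 257 bp (124813841 to 124814097). The last 35.9 kb, or 71.8% of the window, held no site. At least 1 site was present in 33.3% of autosomal windows of 50 kb and at least 3 in 16.4%. The ratio to the rest of chromosome 6 was 3.50 (0.721 to 10.2). The table places Gpr162, a gene of an orphan receptor, before Cd4, and Lag3, an inhibitory receptor gene of activated T cells, after it. All 3 sites were thus on the Gpr162 side, and the side facing Lag3 was empty up to the window's edge. The next site on the chromosome came 39.2 kb after the third, and the adjoining 50 kb on that side held 3.

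The Cd8a-Cd8b1 window (chr6:71250000-71350000, 100 kb) held 2 narrow sites. The pair measured 282 bp (71266727 to 71267008) and 351 bp (71272733 to 71273083), both below the list's 25th percentile of 352 bp. The remaining 76.9 kb held none, and the next site on the chromosome came 116 kb after the second. Windows of 100 kb held at least 1 site in 42.2% of cases and at least 2 in 33.8%, and the ratio to the rest of chromosome 6 was 1.16 (0.141 to 4.21). Cd8b1, the gene of the β chain of CD8, precedes Cd8a, that of the α chain, in the gene order, so the empty part lay on the Cd8a side.

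**Figure D2:**
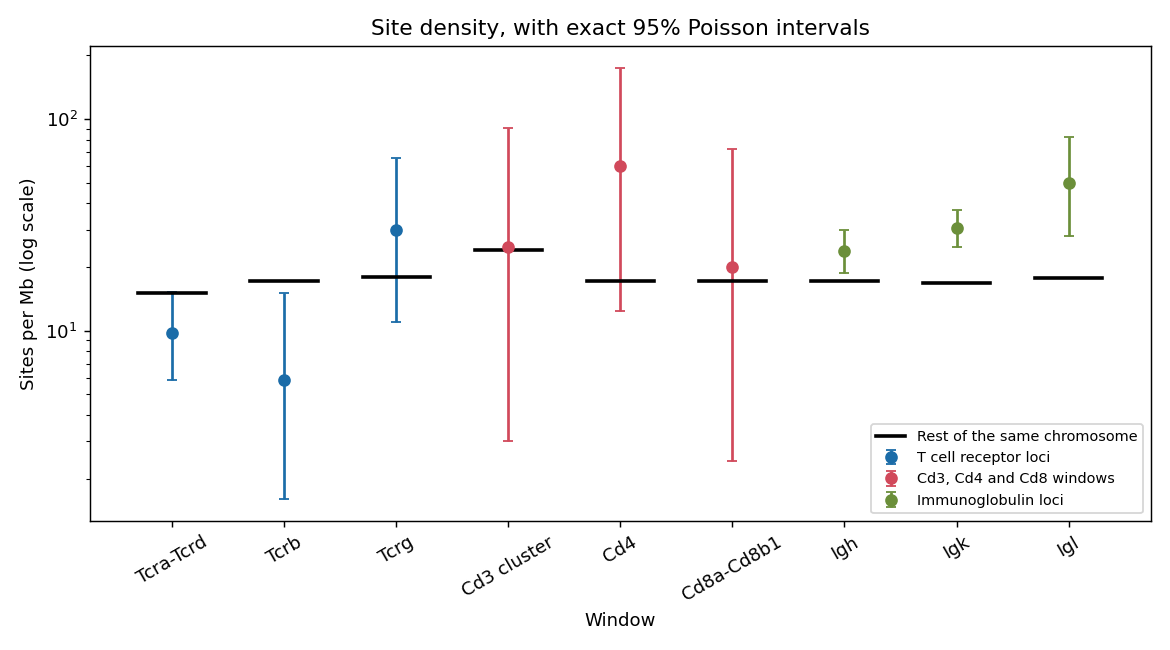
Points give sites per Mb in each window on a log scale with exact 95% Poisson intervals, and black lines the density of the rest of the same chromosome. Tcra-Tcrd at 9.74 and Tcrb at 5.88 per Mb lie below their lines, and the 3 immunoglobulin windows at 23.9, 30.6 and 50 per Mb lie above theirs. The Igh value of 23.9 includes 32 of 74 sites from the first 10% of its window.

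The immunoglobulin loci, which B cells rearrange and express, were the nearest loci of the same build. Their windows, of 3.1 Mb for Igh, 3.3 Mb for Igk and 0.3 Mb for Igl, were set from general knowledge of mm9 and not from an annotation, and include some flanking sequence. They held 74, 101 and 15 sites. The receptor loci of T cells together had 10.2 sites per Mb (6.86 to 14.7) and the immunoglobulin loci 28.4 (24.5 to 32.7). The ratio was 0.361 (exact 95% interval 0.236 to 0.536), a difference larger than counting error for the windows as set. The Igh density rests in part on where its window starts. The first 10% of that window held 32 of the 74 sites, and the adjoining window on the left held 221. The middle 80% of Igh, a part chosen after the sites were seen, had 14.9 sites per Mb (10.5 to 20.6). The rest of chromosome 12 had 17.2, so Igh showed no excess over its chromosome there.

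Taken one by one over whole windows, Tcra-Tcrd had 0.408 times the density of Igh (0.233 to 0.683) and 0.318 times that of Igk (0.184 to 0.523). Ratios to Igh include the dense start of its window, which can hold flanking sequence. Tcrb had 0.246 times the density of Igh (0.0654 to 0.658) and 0.192 times that of Igk (0.0514 to 0.507), which lies on the same chromosome. Tcrg did not differ from either beyond counting error, with ratios of 1.26 (0.447 to 2.87) and 0.980 (0.351 to 2.21). Against Igl, the ratios were 0.195 for Tcra-Tcrd (0.0938 to 0.412), 0.118 for Tcrb (0.0284 to 0.369) and 0.6 for Tcrg (0.191 to 1.64).

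Placement along the loci was compared as well. Cut into stretches of 100 kb from the window start, with the incomplete last stretch left out, the T cell receptor loci had a site in 9 of 27 stretches (33.3%, exact binomial interval 16.5 to 54.0%). The immunoglobulin loci had one in 50 of 67 (74.6%, 62.5 to 84.5%), and 42.2% of all autosomal stretches had one. The incomplete stretches left out, at the ends of Tcra-Tcrd and Tcrb, both hold sites. With them the count for the T cell loci was 11 of 29 (37.9%, 20.7 to 57.7%). With or without them, the T cell loci were within counting error of all autosomal stretches. The middle 80% was a part chosen after the sites were seen. In it Igl had 45.8 sites per Mb (22.9 to 82.0), Igk 27.7 (21.7 to 34.8) and Igh 14.9 (10.5 to 20.6). Tcra-Tcrd had 0.641 (0.0162 to 3.57). Tcrb had 3.68 (0.445 to 13.3) and Tcrg 6.25 (0.158 to 34.8) there. Both intervals overlap that of Igh, and that of Tcrg also overlaps those of Igk and Igl. The window ends that face the constant genes in the gene order were also counted. The last 10% of Tcra-Tcrd, toward Trac, held 11 of its 19 sites, and its first 10% held 7. In Tcrb the last 10% held 1 of 4 sites, and in Tcrg 4 of 6. In Igk the last 10%, toward Igkc, held 27 of 101, and in Igh the first 10% held 32 of 74. The first 10% of Igl, toward Iglc1, held 4 of 15. These ends can include flanking sequence, so sites of constant genes and of neighbours cannot be told apart here.

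**Figure D3:**
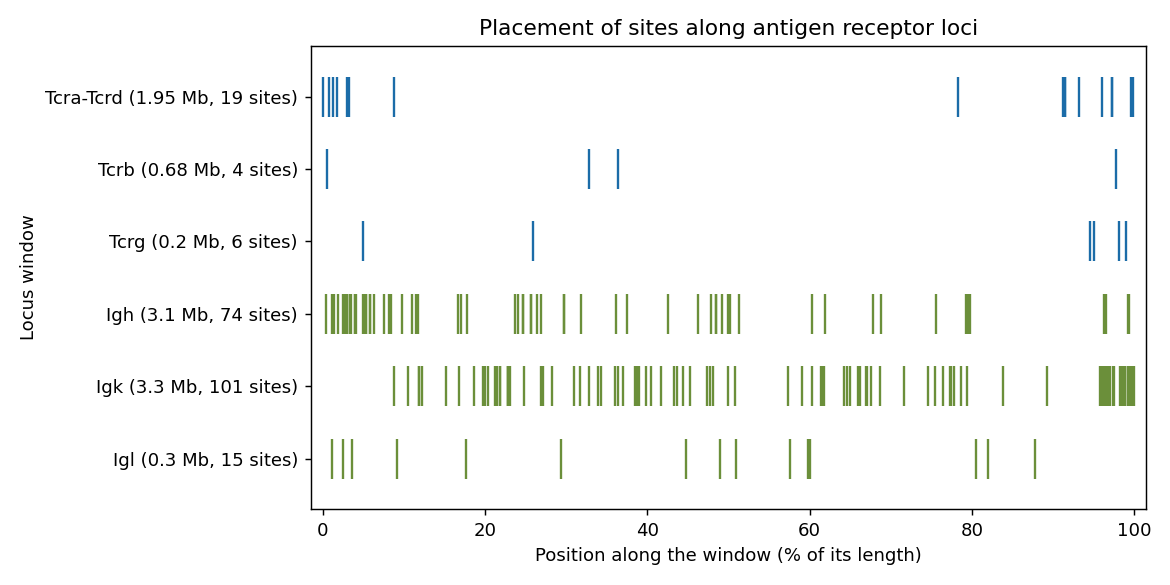
Each tick is 1 site, placed by its midpoint as a percentage of the window length. In the middle 80% of the window lie 1 of 19 sites of Tcra-Tcrd, 2 of 4 of Tcrb and 1 of 6 of Tcrg, against 37 of 74 of Igh, 73 of 101 of Igk and 11 of 15 of Igl.

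The widths of the T cell sites lay within counting error of those of the list. Their median width was 505.5 bp (95% interval from order statistics 389 to 724, 36 sites), against 663 bp for the whole list, which lies inside that interval. In the immunoglobulin windows the median was 461 bp. Narrow sites of under 400 bp were 12 of 36 (33.3%, 18.6 to 51.0%), close to the 30.5% of the list. None had the narrowest listed width of 249 bp, which 2.41% of the list has. Of the 36, 9 (25%) had a neighbour within 500 bp, against 31.4% of all sites, and all 9 were in the receptor windows.

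**Figure D4:**
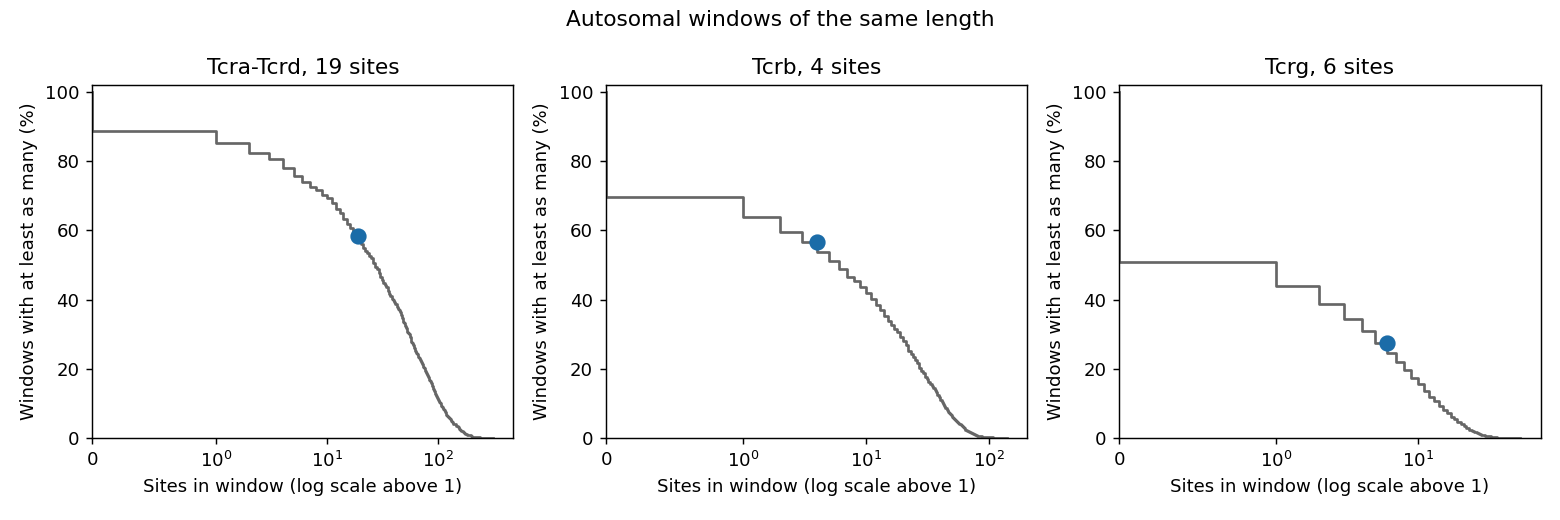
Grey lines give the percentage of autosomal windows of the same length that held at least the number of sites on the horizontal axis, which is logarithmic above 1. The blue points mark Tcra-Tcrd at 58.5%, Tcrb at 56.6% and Tcrg at 27.5%.

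There was 1 library with no replicate and the list has no read counts, so no test between conditions was possible, the depth is unknown and no p-value is given. Intervals cover counting error only and treat sites as independent, which neighbouring sites are not. In a mixed suspension, an open locus in a small share of T cells and a weakly open locus in the tumour cells cannot be told apart, nor can a closed locus and one below the caller's threshold.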

How the data were processed

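DNaseI sequencing of 1 lymphoma was deposited as a list of sites with 3 columns (chromosome, start, end). BWA 0.6.2, SAMtools and the build mm9 are named in the submitters' processing notes. How sites were called, at which threshold and whether against the input is not given in the sources used here. Reads of the input library were not used. The deposited values are positions only; starts, counted from 0, were raised by 1 for printing. The depth of the library is unknown.

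Sites were assigned to the 6 windows by an overlap of at least 1 bp. Density was set against the rest of the chromosome between its first and last site. Background windows were non-overlapping tiles of the same length on chromosomes 1 to 19 from the first base, without those overlapping the window. Stretches of unknown sequence were not taken out. Every site was named in windows with 10 sites or fewer, otherwise the 5 widest, the first and the last. Ratios carry exact conditional binomial intervals at 95%. Members and lists were chosen with earlier results of these data known, and the parts of 10%, the 100-kb stretches and the motifs after the sites were seen. Other T cell pathway genes need an mm9 annotation and were not analysed here. Counting and intervals ran in Python 3.11.15 with scipy 1.17.1, numpy 2.4.6 and pandas 2.3.3, and figures in matplotlib 3.10.9. The density ratio and its interval were tested on simulated sites placed at random and independently, unlike the real sites. Tile counts and joining were checked on the real list, and the other steps were not tested.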

Additional observations from a re-analysis of the deposited data

How the results depend on the processing

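Of the 95 values computed again under another setting, 66 lay inside the interval of the reported value (counts: within 1.5 times) and 29 lay outside. Only sites wider than the list's median left 10 in the receptor windows, 3 in the Cd3, Cd4 and Cd8 windows and 13 in all, as the setting itself removes sites, and the Cd8a-Cd8b1 window then held 0. The share of autosomal windows with at least as many sites became 62.5% for Tcra-Tcrd, 64.0% for Tcrb and 34.0% for Tcrg. On the same chromosome alone it was 47.5%, 52.1% and 23.7%, and 54.5% for Tcrb once sites within 1 kb of each other were joined. Windows widened by 10 kb on each side brought the Cd3, Cd4 and Cd8 windows to 11 sites, of which 7 were in the Cd4 window. The ratio of the T cell receptor to the immunoglobulin loci ran from 0.335 by covered bases to 0.408 with the wider sites. By covered bases, the ratio to the chromosome went from 1.16 to 0.477 for Cd8a-Cd8b1, from 3.50 to 2.06 for Cd4, from 1.67 to 1.10 for Tcrg and from 1.04 to 1.90 for the Cd3 cluster, which the wider sites put at 2.05; they put Tcrb at 0.178. The ratio of Tcrb to its chromosome was 0.432 with joined sites (0.117 to 1.11), no longer below 1 beyond counting error, and that of Tcra-Tcrd fell below 1 beyond it with the wider sites, at 0.473 (0.190 to 0.979), and with sites placed by their midpoint, at 0.608. Counting the incomplete 100-kb stretches and starting tiles at the first site of each chromosome were chosen after seeing the data; the latter gave 60.3% for Tcra-Tcrd, 57.5% for Tcrb and 28.2% for Tcrg. No paired analysis was possible because there was 1 library and no test. Depth is unknown, so what it limits could not be examined.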
